A study of Mus musculus with 4 samples.

Results

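Matrix metalloproteinases of the stroma and their tissue inhibitors were described in cultured mammary fibroblasts with and without the transcription factor Ets2. The set holds 8 genes of the 12394 named on the array: 5 metalloproteinases (Mmp2, Mmp11, Mmp14, Mmp19 and Mmp23) and 3 tissue inhibitors of metalloproteinases (Timp1, Timp2 and Timp3). Members were taken by name, as every probe set of the array that the platform annotation assigns to 1 of these genes and to no other, which gave 20 probe sets. A probe set is a group of short probes against 1 transcript, and its value is a log2 level, so that a difference of 1 is a 2-fold difference.

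The fibroblasts came from the mammary glands of female FVB/N mice aged 9 weeks and were measured at the second passage in culture, with 1 array for each of 4 groups. PyMT Ets2-null fibroblasts (PyMT;Fsp-cre;Ets2db/loxP) and PyMT Ets2-present fibroblasts (PyMT;Ets2db/loxP) came from mice that carry the polyoma middle T oncogene under the MMTV promoter, which acts in the mammary epithelium and not in the fibroblasts. Normal Ets2-null fibroblasts (Fsp-cre;Ets2db/loxP) and normal Ets2-present fibroblasts (Ets2db/loxP) came from mice without the oncogene. Mice of all 4 groups had a conventional Ets2 knockout allele, db, beside the conditional loxP allele, so the Ets2-present fibroblasts had 1 intact copy. Cre was driven by the promoter of fibroblast specific protein 1 and was carried by both Ets2-null groups only, so an effect of the transgene and of Ets2 loss cannot be told apart. Because each group was 1 array, the differences have no replicate check, no error and no p-value.

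Metalloproteinases cut collagens, laminins, proteoglycans and other proteins of the extracellular matrix, and most are made as inactive proenzymes. TIMPs bind the active site of the enzymes and block them. Mmp2, a gelatinase that also cuts the collagen of basement membranes, is activated at the cell surface by the membrane-anchored collagenase Mmp14, and Timp2 bridges the proenzyme to Mmp14 in that reaction, so Timp2 takes part in activation as well as in inhibition. In mammary tumors much of this system is made by stromal cells rather than by the carcinoma.

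The name of the set, constitutive, was compared with the data. For 8 of 8 genes the brightest probe set was above the filter level of 4.63, the 40th percentile of the table, in every array, against 81.0% of the 8687 genes kept by that filter. The span of the brightest probe set over the 4 arrays had a median of 0.85 on the log2 scale for the members and 0.75 for all kept genes. It ran from 0.32 for Timp2 to 1.31 for Timp1, and 3 of the 8 genes spanned at least 2-fold, against 34.9% of all kept genes. By median span and by this share the members did not vary less than all kept genes. The 5 inducible secreted metalloproteinases (Mmp3, Mmp9, Mmp10, Mmp12 and Mmp13) spanned 1.59 to 4.33. The members and that list were chosen with earlier results of these data known. Neither the members' presence above the filter level nor the contrast is therefore a check of the name. Of the 20 member probe sets, 19 reached the filter level in at least 1 array. A Timp2 probe set (1420924_at) stayed between 3.25 and 3.90 in all 4, and a dim Mmp19 probe set (1421976_at) was kept although both of its PyMT values lay under the level.

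**Figure D1:**
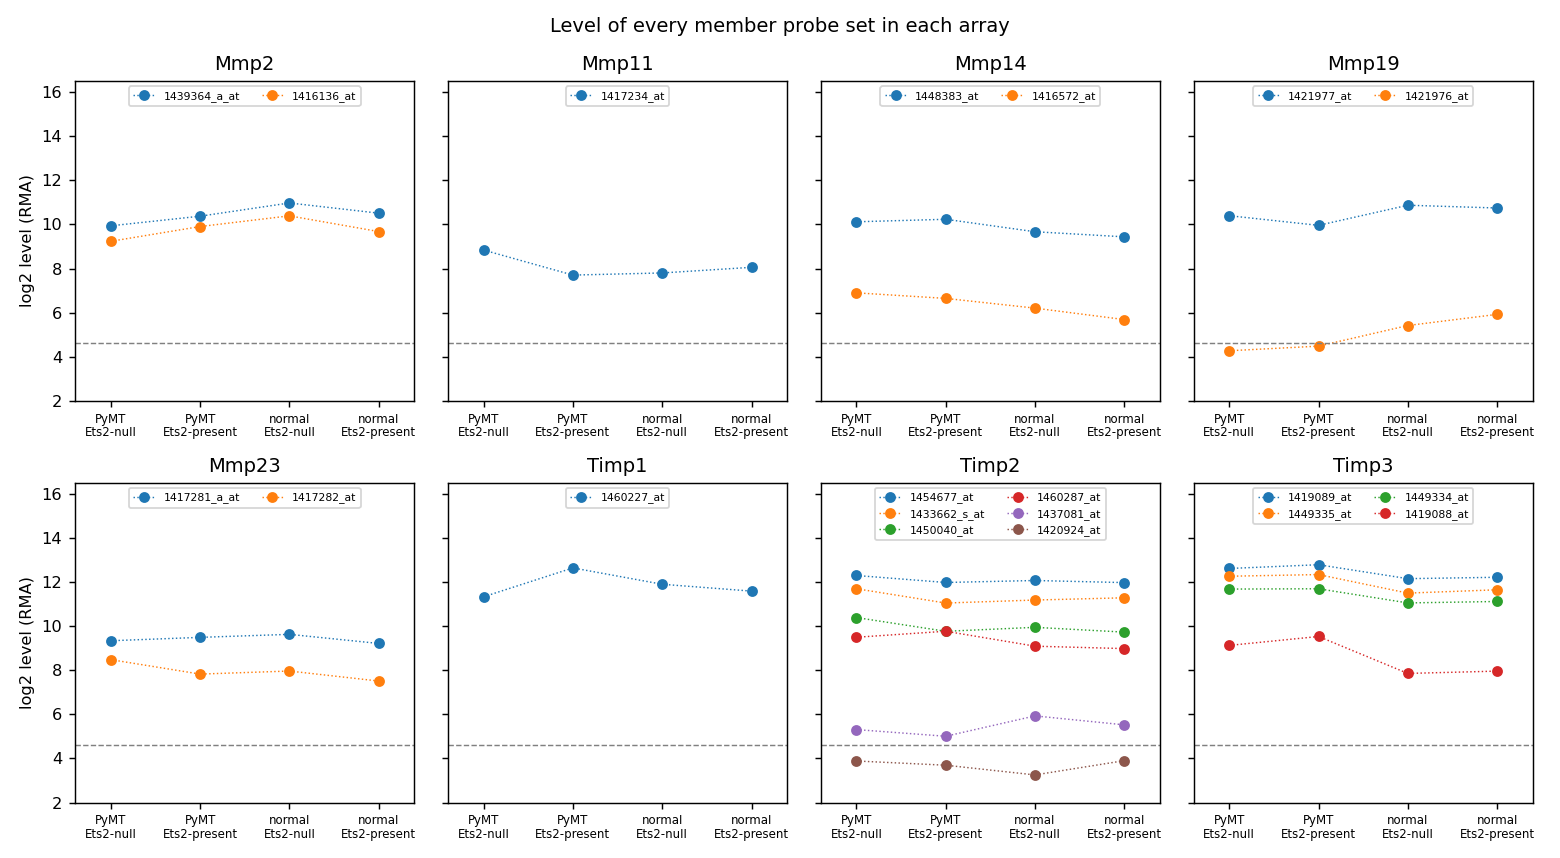
Log2 RMA level (vertical axis) of every probe set of the 8 genes in the 4 arrays, 1 array per group; each colour is a probe set and the dashed line is the filter level of 4.63. Timp3 sits higher in the PyMT than in the normal arrays in all 4 of its probe sets, and Timp1 is highest in the PyMT Ets2-present array, at 12.64.

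Several facts about the arrays touch the values below. The fibroblast markers (Col1a1, Vim, Pdgfra and others) were above the filter level in 10 of 10 in every array. Without Ets2 in PyMT fibroblasts 8 were higher and 2 lower, with Pdgfra (1.41) and Thy1 (-1.25) past 2-fold. With PyMT in Ets2-null fibroblasts 6 were higher and 4 lower, with Pdgfrb (1.01), Thy1 (-1.9) and Dcn (-2.41) past 2-fold. With PyMT in Ets2-present fibroblasts 3 were higher and 7 lower, with Pdgfra (-1.64) and Dcn (-1.11) past 2-fold. The macrophage markers averaged 5.25 in the PyMT Ets2-null array, 6.46 in PyMT Ets2-present, 5.24 in normal Ets2-null and 5.26 in normal Ets2-present fibroblasts on the log2 scale. Of these 10 markers, 6, 8, 7 and 6 reached the filter level in the arrays in that order, with Csf1r, Lcp1, Lyz2 and Tyrobp above it in all. The defining macrophage marker Adgre1, the F4/80 antigen, was at 6.17 in PyMT Ets2-present fibroblasts and under the filter level in the other 3 arrays. Of 7 epithelial markers, 4, 2, 2 and 3 reached the filter level in the arrays of PyMT Ets2-null, PyMT Ets2-present, normal Ets2-null and normal Ets2-present fibroblasts, with Cdh1 and Krt8 under it in all, and of 6 endothelial markers 1, 0, 1 and 1 did. Of 3 adipocyte markers 1 reached it, Fabp4, in every array. The control probe sets for 18S ribosomal RNA averaged 9.63 in the PyMT Ets2-null array, against 7.94 to 8.16 in the others, and that array also had the lowest correlations with the rest (0.959 to 0.969). The probe set of Ets2 itself read 11.22 in PyMT Ets2-null and 11.21 in PyMT Ets2-present fibroblasts, and 11.89 in normal Ets2-null and 11.86 in normal Ets2-present fibroblasts. Its place relative to the deleted exons is not given, so it checks nothing. In RNA from whole cultures, fewer cells of a type and less RNA per cell cannot be told apart.

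To see what loss of Ets2 did to the set in tumor-associated fibroblasts, the PyMT Ets2-null and PyMT Ets2-present arrays were compared. Timp1 was 2.48-fold lower and Mmp11 2.19-fold higher without Ets2, and no other member probe set was 2-fold apart. Thus 2 of the 19 kept member probe sets were at least 2-fold apart, against 15.5% of the 14031 kept probe sets, a count near the background. By brightest probe set these were 2 of 8 genes, against 15.4% of kept genes. The median difference of the 8 genes, each by its brightest probe set, was -0.13, against 0.02 for all kept genes.

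Timp1, a secreted inhibitor that blocks most soluble metalloproteinases but acts weakly on membrane-anchored ones, is read by 1 probe set (1460227_at). Its log2 level was 11.33 in PyMT Ets2-null and 12.64 in PyMT Ets2-present fibroblasts, and 11.90 in normal Ets2-null and 11.59 in normal Ets2-present fibroblasts. The PyMT Ets2-present array stood above the other 3, and the PyMT Ets2-null array was the lowest of the 4. The Ets2 difference was -1.31 in PyMT fibroblasts, where 4.43% of kept probe sets were lower still, and 0.31 in normal fibroblasts. The PyMT difference was -0.57 in Ets2-null fibroblasts and 1.05 in Ets2-present fibroblasts, a 2.07-fold higher level. In the same PyMT comparison 9 of 10 macrophage markers were lower without Ets2, by a median of -1.23; the part of these cells in the Timp1 value was not tested. In the same comparison, 4 of the 5 inducible metalloproteinases were at least 2-fold lower without Ets2 (median -3.39), against 7.77% of kept genes. That list was chosen with earlier results of these data known. Among the 4 was Mmp13 at -4.33, with a level of 4.73 in PyMT Ets2-null fibroblasts, near the filter level. Mmp9, also among them, was at -4.14, with a level of 3.6 there, under the filter level. A second Mmp9 probe set differed by -1.02.

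Mmp11, or stromelysin-3, is activated inside the cell by furin-like proteases and is known from the stroma around breast carcinomas. Its probe set (1417234_at) read 8.84 in PyMT Ets2-null and 7.70 in PyMT Ets2-present fibroblasts, and 7.80 in normal Ets2-null and 8.06 in normal Ets2-present fibroblasts. The PyMT Ets2-null array alone was high, and the other 3 lay within 0.35 of each other. The Ets2 difference was 1.13 in PyMT fibroblasts, where 5.48% of kept probe sets were higher still, and -0.25 in normal fibroblasts. The high value is in the array with the high 18S controls. Of 4 pericyte markers 3 were also at least 2-fold higher there than in PyMT Ets2-present fibroblasts (Mcam 1.78, Rgs5 1.08 and Des 1.02, with Cspg4 at -1.43), with mean levels of 5.99 in PyMT Ets2-null and 5.38 in PyMT Ets2-present fibroblasts, and the part of either in the Mmp11 value was not tested.

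The promoters of these genes are shown because Timp1 and Mmp11 differed in opposite directions without Ets2, an ETS factor, in PyMT fibroblasts, while Timp3 and Mmp14, described further on, differed mainly with PyMT. ETS proteins bind DNA around a GGAA core, and AP-1, their frequent partner, binds TGANTCA. Each window holds the 250 bases before the gene's start in RefSeq, printed 5′ to 3′ on the gene's strand, with matches to AGGAAG on either strand in capitals.
Timp1, GRCm38.p6 chrX:20869916-20870165, plus strand: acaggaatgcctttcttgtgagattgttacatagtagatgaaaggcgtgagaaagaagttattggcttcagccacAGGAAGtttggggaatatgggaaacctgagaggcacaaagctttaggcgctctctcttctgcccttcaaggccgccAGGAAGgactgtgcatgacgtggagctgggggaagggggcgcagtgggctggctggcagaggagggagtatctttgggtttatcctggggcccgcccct
Mmp11, GRCm38.p6 chr10:75932503-75932752, minus strand: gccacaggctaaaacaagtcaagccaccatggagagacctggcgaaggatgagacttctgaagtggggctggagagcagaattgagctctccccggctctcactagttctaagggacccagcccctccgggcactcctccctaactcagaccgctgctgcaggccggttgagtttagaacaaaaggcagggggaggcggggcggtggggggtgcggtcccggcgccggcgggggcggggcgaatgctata
Timp3, GRCm38.p6 chr10:86300162-86300411, plus strand: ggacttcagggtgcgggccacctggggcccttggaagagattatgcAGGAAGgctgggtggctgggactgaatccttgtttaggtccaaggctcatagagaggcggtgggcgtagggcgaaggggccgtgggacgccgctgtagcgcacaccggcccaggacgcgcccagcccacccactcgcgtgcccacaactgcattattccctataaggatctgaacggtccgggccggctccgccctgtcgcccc
Mmp14, GRCm38.p6 chr14:54431348-54431597, plus strand: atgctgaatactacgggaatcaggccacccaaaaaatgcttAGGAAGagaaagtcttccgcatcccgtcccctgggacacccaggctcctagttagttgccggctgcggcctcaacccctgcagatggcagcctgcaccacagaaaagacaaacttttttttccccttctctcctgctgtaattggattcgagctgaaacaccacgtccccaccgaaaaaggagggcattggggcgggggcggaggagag
The Timp1 window held 2 matches to AGGAAG, whose first bases lay 175 and 99 bases before the start. Those of Timp3 and Mmp14 held 1 each, 204 and 209 bases before the start, and that of Mmp11 held 0. Over 32851 promoter windows of the same length, 29.5% held at least 1 match and 6.25% at least 2. TGANTCA, present in 6.75% of all windows, was in none of the 7 windows found for the members, so no match to it overlapped AGGAAG. The 7 windows belonged to 6 genes, 2 of them to Mmp23, and Mmp2 and Mmp19 had no window. The windows of Timp2 and Mmp23, not printed, held 0 matches to AGGAAG. Other GGAA cores in the printed windows were not marked. A match to these letters is a description of the sequence and not a bound site.

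**Figure D2:**
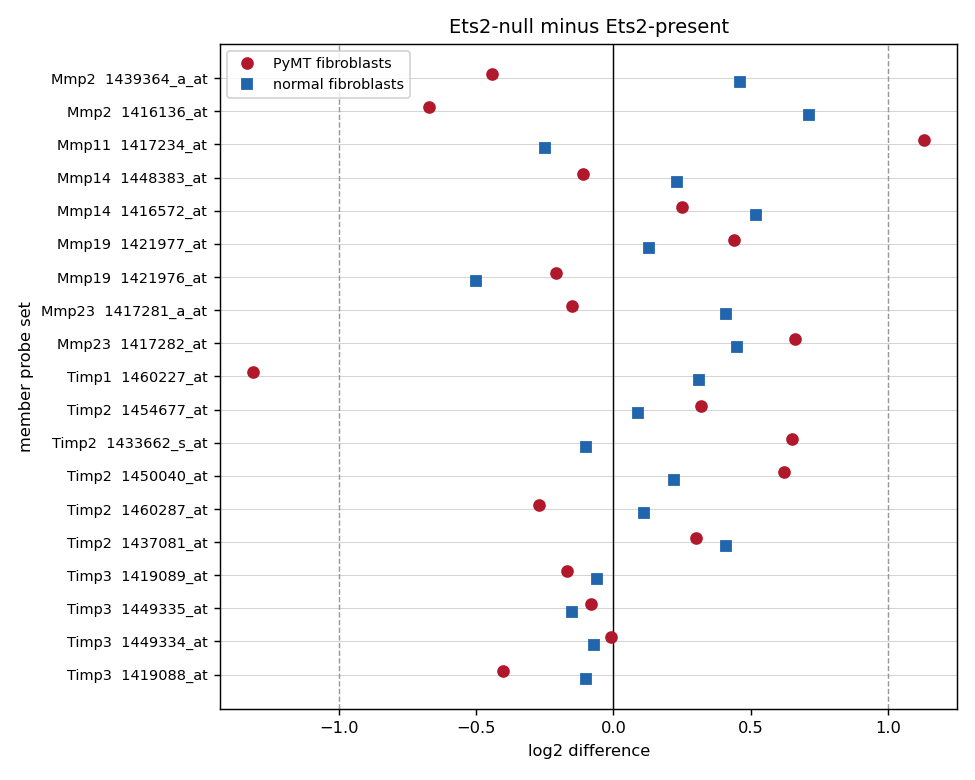
Ets2-null minus Ets2-present log2 level (horizontal axis) for the 19 kept member probe sets, in PyMT fibroblasts (red circles) and in normal fibroblasts (blue squares), 1 array per group; dashed lines mark a 2-fold difference. Timp1 (-1.31) and Mmp11 (1.13), both in PyMT fibroblasts, are the points beyond the lines, and both Mmp2 probe sets lie left of 0 in PyMT and right of 0 in normal fibroblasts.

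Mmp2 differed with Ets2 in opposite directions in the PyMT and normal pairs, by less than 2-fold in each. Its probe set 1416136_at read 9.24 in PyMT Ets2-null and 9.90 in PyMT Ets2-present fibroblasts, and 10.39 in normal Ets2-null and 9.68 in normal Ets2-present fibroblasts. The second, 1439364_a_at, read 9.94 in PyMT Ets2-null and 10.37 in PyMT Ets2-present fibroblasts, and 10.97 in normal Ets2-null and 10.51 in normal Ets2-present fibroblasts. In both, the PyMT Ets2-null array was lowest and the normal Ets2-null array highest. The Ets2 differences were -0.67 and -0.44 in PyMT and 0.71 and 0.46 in normal fibroblasts; 5.59% of kept probe sets were higher than the first of these in normal fibroblasts. Of the 2119 genes with 2 kept probe sets, 10.4% were likewise lower in PyMT and higher in normal fibroblasts in both. The 2 Ets2-null arrays were 2.23-fold and 2.05-fold apart in Mmp2, lower with PyMT, whereas the 2 Ets2-present arrays differed by 0.23 and -0.14.

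The activator and the bridging inhibitor of Mmp2 did not differ by 2-fold with Ets2 in any probe set. Mmp14 differed by -0.11 and 0.25 without Ets2 in PyMT fibroblasts and by 0.23 and 0.52 in normal fibroblasts. The 5 kept Timp2 probe sets differed by -0.27 to 0.65 in PyMT fibroblasts, 4 of them higher without Ets2, and by -0.10 to 0.41 in normal fibroblasts. The brightest (1454677_at) read 12.30 in PyMT Ets2-null and 11.98 in PyMT Ets2-present fibroblasts, and 12.07 in normal Ets2-null and 11.97 in normal Ets2-present fibroblasts, which leaves the 4 arrays within 0.32 of each other. The Timp2 differences spread over 0.92 in PyMT and 0.51 in normal fibroblasts, more than the size of any of them. Over all kept genes with more than 1 kept probe set, the differences of the 2 brightest disagreed with an SD of 0.68 in PyMT and 0.48 in normal fibroblasts. These probe sets share the RNA, so this SD is not replicate error.

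Of the remaining members, Mmp23, a membrane-anchored enzyme with an unusual domain order, was higher without Ets2 in normal fibroblasts by 0.41 and 0.45. In PyMT fibroblasts its 2 probe sets went apart, at -0.15 (1417281_a_at) and 0.66 (1417282_at). Mmp19, a secreted enzyme that cuts basement membrane proteins, differed by 0.44 and -0.21 in PyMT and by 0.13 and -0.50 in normal fibroblasts, the brighter probe set given first. Timp3, which stays bound to the matrix and also blocks proteases of the ADAM and ADAMTS families, differed by -0.40 to -0.01 in PyMT and by -0.15 to -0.06 in normal fibroblasts over its 4 probe sets. In normal fibroblasts 0 of the 19 kept member probe sets were at least 2-fold apart, against 5.54% of all kept probe sets. By brightest probe set 0 of 8 genes were, against 5.42% of kept genes, and the median of the 8 genes was 0.18, against -0.02 for all kept genes.

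Next, fibroblasts from PyMT mice were compared with normal fibroblasts, once in the Ets2-null and once in the Ets2-present pair, which have no array in common. Timp3 and Mmp14 were higher and Mmp19 lower with PyMT in every probe set of both pairs. In Ets2-null fibroblasts 5 of the 19 kept member probe sets were at least 2-fold apart, against 20.6% of all kept probe sets, and by brightest probe set 2 of 8 genes, against 20.9% of kept genes. In Ets2-present fibroblasts 3 of 19 probe sets were, against 11.5%, and 1 of 8 genes, against 11.6%. These counts lie near the background shares.

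Timp3 was higher with PyMT in each of its 4 probe sets in both pairs. Its probe set 1419088_at read 9.13 in PyMT Ets2-null and 7.86 in normal Ets2-null fibroblasts, and 9.53 in PyMT Ets2-present and 7.96 in normal Ets2-present fibroblasts. Here the PyMT arrays were the high pair whichever the Ets2 genotype. This probe set was 2.41-fold higher with PyMT in Ets2-null and 2.97-fold higher in Ets2-present fibroblasts, where 1.81% of kept probe sets were higher still. The 3 brighter probe sets differed less, by 0.46 to 0.76 in Ets2-null and 0.57 to 0.69 in Ets2-present fibroblasts. The 4 target the same transcript and are not replicates. Of the 461 genes with 4 or more kept probe sets, 8.24% were higher with PyMT in every probe set of both pairs.

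Mmp14 was measured by 2 probe sets, of which the brighter (1448383_at) read 10.12 in PyMT Ets2-null and 9.67 in normal Ets2-null fibroblasts, and 10.23 in PyMT Ets2-present and 9.44 in normal Ets2-present fibroblasts. The dimmer (1416572_at) read 6.90 in PyMT Ets2-null and 6.21 in normal Ets2-null fibroblasts, and 6.65 in PyMT Ets2-present and 5.69 in normal Ets2-present fibroblasts. Both PyMT arrays thus lay above both normal arrays in each probe set. The PyMT differences were 0.45 and 0.69 in Ets2-null and 0.80 and 0.96 in Ets2-present fibroblasts, under 2-fold in each. Of genes with 2 kept probe sets, 16.8% were higher in both probe sets of both pairs.

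Mmp19 ran the other way. The brighter probe set (1421977_at) read 10.40 in PyMT Ets2-null and 10.87 in normal Ets2-null fibroblasts, and 9.96 in PyMT Ets2-present and 10.74 in normal Ets2-present fibroblasts, both PyMT arrays lying under both normal ones. The dimmer (1421976_at) read 4.27 in PyMT Ets2-null and 5.42 in normal Ets2-null fibroblasts, and 4.48 in PyMT Ets2-present and 5.92 in normal Ets2-present fibroblasts. Its folds, 2.21-fold lower with PyMT in Ets2-null and 2.71-fold lower in Ets2-present fibroblasts, rest on PyMT values under the filter level, and the brighter probe set was 1.39-fold and 1.73-fold lower. Of genes with 2 kept probe sets, 17.5% were lower in both probe sets of both pairs.

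In the Ets2-null pair Mmp2 (-1.15 and -1.04) was lower and Mmp11 (1.04) higher with PyMT. For Mmp2 these were the lowest and the highest of the 4 arrays, with both Ets2-present arrays between them. Timp1 was higher with PyMT only in the Ets2-present pair. In that pair 9 of 10 macrophage markers were higher with PyMT (median 1.16) and the part of these cells in the Timp1, Timp3 and Mmp14 values of this pair was not tested. In the Ets2-null pair, where Timp3 and Mmp14 were higher too, 4 of 10 macrophage markers were higher and 6 lower (median -0.19). Among those higher in both pairs were Lyz2, by 1.98 in Ets2-null and 1.74 in Ets2-present fibroblasts, C1qb, by 1.88 and 3.05, and Ptprc, by 1.46 and 0.94. C1qb was under the filter level in both normal arrays, and Ptprc in every array but PyMT Ets2-null. The adipocyte marker Fabp4 was higher with PyMT in both pairs, by 3.17 in Ets2-null and 2.32 in Ets2-present fibroblasts. Of 5 kept epithelial markers, 4 were higher and 1 lower with PyMT in Ets2-null fibroblasts, and 2 higher and 3 lower in Ets2-present fibroblasts. Among these, Krt19 was higher in both pairs, by 2.82 in Ets2-null and 2.38 in Ets2-present fibroblasts, and Krt18 lower, at -2.24 and -3.82. Of 4 pericyte markers, 3 were higher and 1 lower with PyMT in each pair. Their median was 1.58 in Ets2-null fibroblasts, with 3 at least 2-fold higher, and 0.52 in Ets2-present fibroblasts, with 0. The part of these cells in the Timp3, Mmp14 and Mmp11 values was not tested. Timp2 went both ways, with 4 of 5 kept probe sets higher in Ets2-null (-0.62 to 0.51) and 3 of 5 in Ets2-present fibroblasts (-0.52 to 0.79), and so did Mmp23 in Ets2-null fibroblasts (-0.29 and 0.52).

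**Figure D3:**
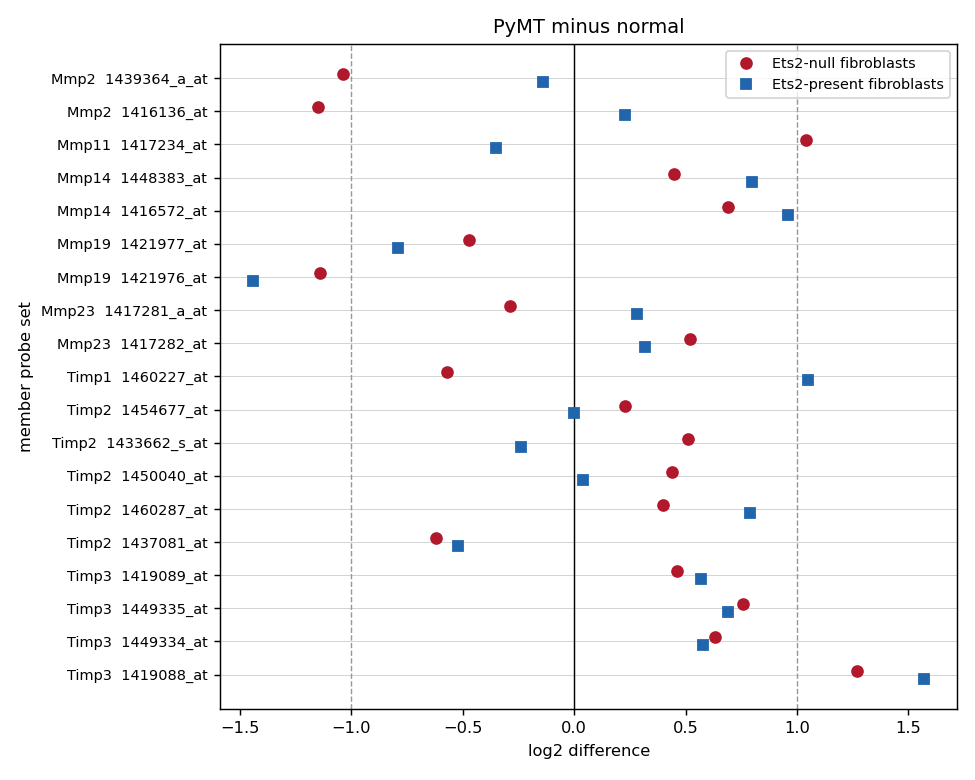
PyMT minus normal log2 level (horizontal axis) for the 19 kept member probe sets, in Ets2-null (red circles) and Ets2-present fibroblasts (blue squares), 1 array per group; dashed lines mark a 2-fold difference. All Timp3 and Mmp14 points lie right of 0 and all Mmp19 points left of it, while Timp1 and Mmp11 have their 2 points on opposite sides.

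**Figure D4:**
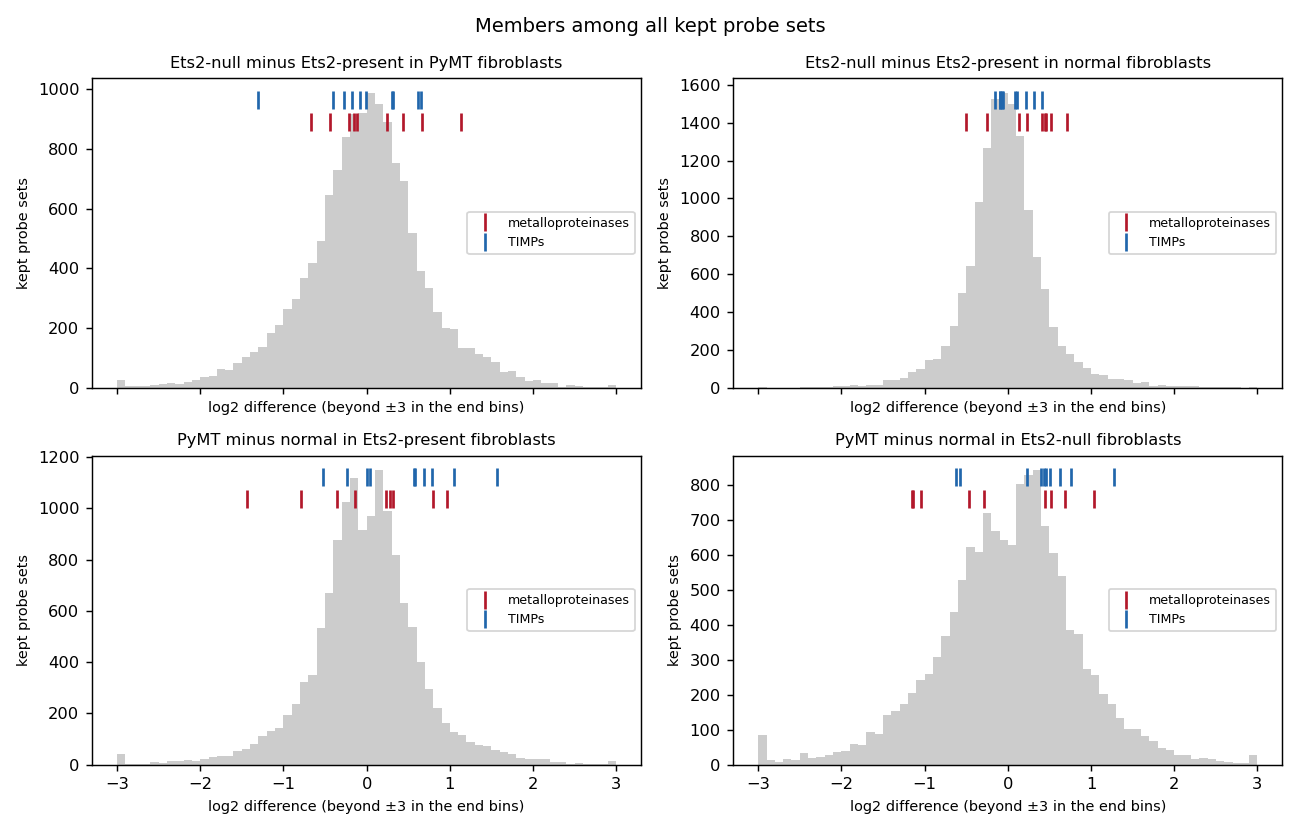
Number of kept probe sets (vertical axis, 14031 in all) by log2 difference in the 4 comparisons, with the kept member probe sets as ticks, red for metalloproteinases and blue for TIMPs; values beyond 3 in size are in the end bins. Most ticks lie over the bulk of each distribution and some lie in the tails. The outermost are the dim Mmp19 probe set at -1.44 and a Timp3 probe set at 1.57, both for PyMT in Ets2-present fibroblasts.

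The Ets2 difference in PyMT minus that in normal fibroblasts was -1.62 for Timp1, 1.39 for Mmp11, and -1.38 and -0.90 for Mmp2. With these, 3 of 19 kept member probe sets reached 2-fold, against 22.0% of all kept probe sets, and 2 of 8 genes by brightest probe set, against 21.4%. The values of Timp3 stayed between -0.30 and 0.07 and those of Mmp14 at -0.35 and -0.27.

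Genes with the pattern nearest to a member were sought for the 3 genes whose brightest probe set spanned at least 2-fold, by the distance between the 4 mean-centred log2 levels. For Timp1 these were Phldb1, Slc12a4 and Vegfc, a growth factor for lymphatic vessels, at distances of 0.09, 0.11 and 0.14. Vegfc read 7.16 in PyMT Ets2-null and 8.65 in PyMT Ets2-present fibroblasts, and 7.87 in normal Ets2-null and 7.59 in normal Ets2-present fibroblasts. For Mmp11 they were Fanca, Ptpn6 and Dhx40 (0.03 to 0.05), of which Ptpn6 was at 4.31 in PyMT Ets2-present fibroblasts, under the filter level. For Mmp2 they were Pcdhb17, Tspo and Chchd5 (0.04 to 0.08). Each rests on 4 arrays among 8687 genes.

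The rest of the system was read from 6 gene lists. Among other metalloproteinases 3 of the 8 genes on the array were kept: Mmp16, a membrane-anchored enzyme, was higher without Ets2 by 1.57 in PyMT fibroblasts, where the Ets2-present level of 4.27 lay under the filter, and by 0.64 in normal fibroblasts, Mmp24 by 0.82 and 0.69, and Mmp17 was at -0.30 and 0.01. Of other inhibitors, Reck, a membrane-anchored inhibitor, differed by 0.66 in PyMT and 0.21 in normal fibroblasts, and Tfpi2, a serine protease inhibitor of the matrix, by -1.10 and -0.22. Timp4 and A2m were under the filter level in all 4 arrays.

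Among 11 kept genes for activation, docking and clearance, 2 were at least 2-fold lower without Ets2 in PyMT fibroblasts, against 7.77% of kept genes. These were the proprotein convertases Pcsk5 (-1.66) and Pcsk6 (-1.55, in PyMT Ets2-null fibroblasts under the filter level). Pcsk5 was 1.66 higher without Ets2 in normal fibroblasts, where all its probe sets were higher, by 0.41 to 1.66. In PyMT fibroblasts its probe sets disagreed in sign, and one of them differed by 0.53. Furin, which processes Mmp11 and Mmp14, was at 0.28 in PyMT and 0.00 in normal fibroblasts. Matrix substrates, each by its brightest probe set, were higher without Ets2 in 13 of 15 in PyMT fibroblasts (median 0.34, against 0.02 for all kept genes). They were led by Lamb1 (0.79), Hspg2 (0.78) and Lamc1 (0.60), with 0 of them reaching 2-fold by that probe set. The 2 lower ones were Dcn (-0.68), a collagen-binding proteoglycan, and Eln (-0.14). In normal fibroblasts 12 of 15 were lower (median -0.09), and Eln differed by 1.16, with a level under the filter in Ets2-present fibroblasts. Probe sets of some matrix genes disagreed. Dimmer ones of Fn1 (1.52 in PyMT and -1.21 in normal fibroblasts) and Nid1 (1.12 and -0.77) were past 2-fold in PyMT fibroblasts. Dimmer Lamb1 probe sets differed by 1.0 and 0.61 in PyMT fibroblasts. Those of Col5a1 were lower there, at -0.19 and -0.11, against 0.31 for its brightest. Among 7 kept ADAM and ADAMTS genes, whose products Timp3 can block, Adamts5, an aggrecanase, differed with Ets2 loss by 1.52 in PyMT and -1.25 in normal fibroblasts, and Adam17, which sheds cell-surface proteins, was at -0.07 and -0.10. Adamts5 was higher with PyMT by 3.42 in Ets2-null and by 0.66 in Ets2-present fibroblasts, and Timp3 was higher in both pairs.

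**Figure D5:**
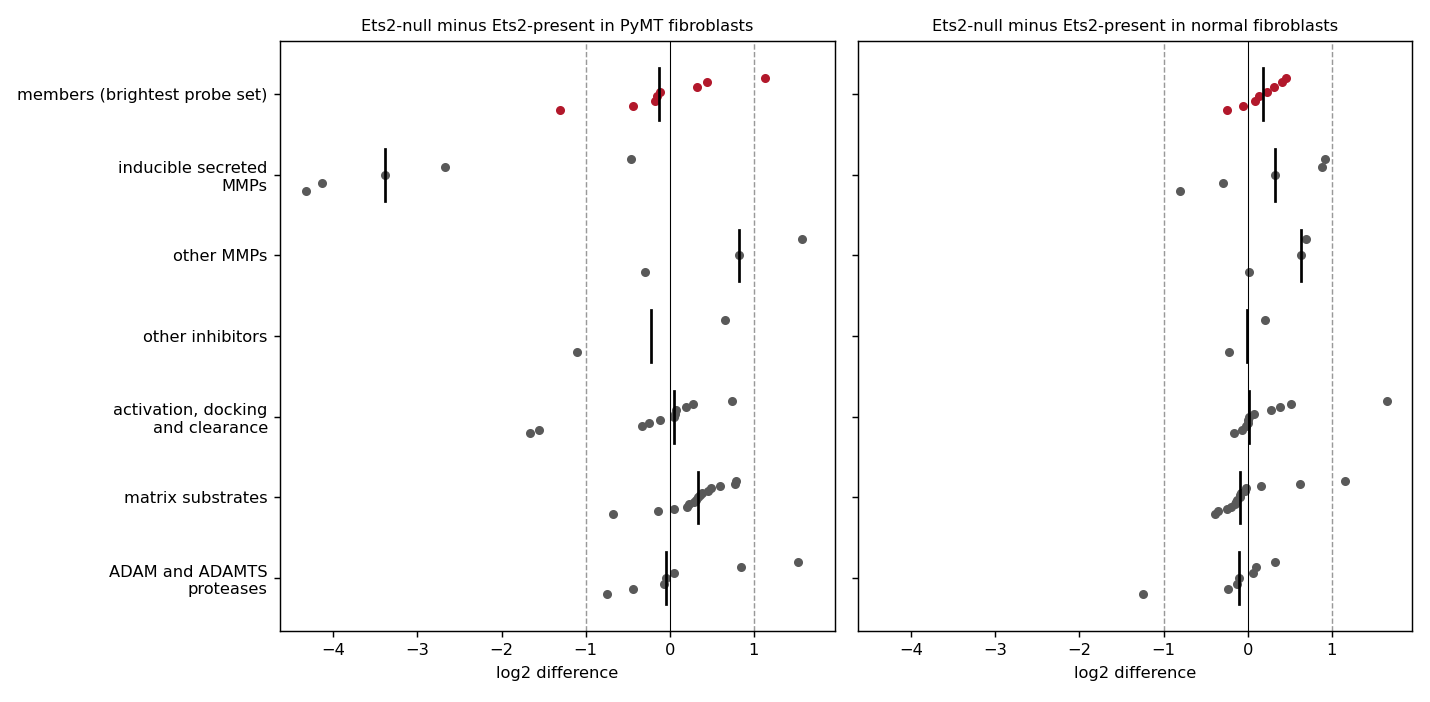
Ets2-null minus Ets2-present log2 level (horizontal axis) in PyMT (left) and normal fibroblasts (right) for the 8 members and the kept genes of 6 lists, each by its brightest probe set; short black lines are medians and dashed lines mark 2-fold. The members' median is -0.13 in PyMT fibroblasts, that of the inducible secreted metalloproteinases -3.39.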

How the data were processed

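Total RNA of 4 fibroblast cultures was hybridised to Affymetrix mouse arrays, 1 array per group. The deposited log2 levels were made by the authors with RMA (per the labels, version not given in the sources used here), which corrects background, normalizes between arrays and summarizes probes. Which other arrays were processed with these is not given in the sources used here. Of 22690 probe sets, 20393 had 1 gene in the platform annotation, 691 several and 1606 none. Probe sets were kept if any array reached 4.63, the 40th percentile, and a gene was represented by its brightest probe set. Differences were taken before rounding and called at 2-fold, with no test; the number of arrays limits the precision. The scripts were tested on simulated data. Promoters came from RefSeq (GRCm38.p6). Members and gene lists were chosen with earlier results of these data known. Every member was named, with up to 3 extreme genes at each end of a list, the 3 nearest in pattern to a member spanning at least 2-fold, and some genes for their role (Furin, Adam17, Timp4, A2m, markers). Alternatives (7) were cyclic loess (limma 3.58.1, R 4.3.3), median centring, low values raised to the filter level, a 60th percentile filter, no filter, means over probe sets, and leaving out _x_at and _s_at probe sets. Python 3.11.15, numpy 2.4.6, pandas 2.3.3 and matplotlib 3.10.9 were used.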

Additional observations from a re-analysis of the deposited data

Results flagged for a closer look

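Members were singled out where the Ets2 difference had opposite signs in PyMT and normal fibroblasts, or the PyMT difference opposite signs in Ets2-null and Ets2-present fibroblasts, in every kept probe set, and the 2 differences were at least 2-fold apart in at least 1 probe set. With 1 array per group, none of these differences between groups was tested. Timp1 had an Ets2 difference of -1.31 in PyMT and 0.31 in normal fibroblasts, and a PyMT difference of -0.57 in Ets2-null and 1.05 in Ets2-present fibroblasts. Mmp11 had an Ets2 difference of 1.13 in PyMT and -0.25 in normal fibroblasts, and a PyMT difference of 1.04 in Ets2-null and -0.35 in Ets2-present fibroblasts. Mmp2 had Ets2 differences of -0.67 and -0.44 in PyMT and of 0.71 and 0.46 in normal fibroblasts, in its 2 probe sets. The PyMT minus normal value of these was -1.38 and -0.90, so the second probe set, the brighter, fell short of 2-fold.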

How the results depend on the processing

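Of 280 member differences recomputed under the 7 alternatives, 5 changed sign at 2 decimals, all when a gene was given as the mean of its probe sets: Ets2 loss in PyMT fibroblasts for Mmp14 (0.07) and Mmp23 (0.25), Ets2 loss in normal fibroblasts for Mmp19 (-0.19), and PyMT for Mmp2 in Ets2-present (0.05) and Mmp23 in Ets2-null fibroblasts (0.11). The same mean took Timp2 for PyMT in Ets2-present fibroblasts from 0.00 to -0.02. With that mean, 1 member gene in place of 0 was at least 2-fold lower with PyMT in Ets2-present fibroblasts, and 2 in place of 1 in the subtraction of the Ets2 differences. In Ets2-null fibroblasts 0 in place of 1 was lower with PyMT after median centring, which moved the median of all kept genes by 0.11 for Ets2 loss in PyMT fibroblasts. At the 60th percentile filter, 0 in place of 1 member probe set was lower with PyMT in Ets2-present fibroblasts. List medians that moved were those of inducible metalloproteinases for Ets2 loss in PyMT fibroblasts (-2.67 with the mean) and for PyMT in Ets2-present fibroblasts (2.32 at the 60th percentile); of other metalloproteinases for Ets2 loss in normal fibroblasts (-0.02 with no filter, 0.01 with the mean) and for PyMT in Ets2-present fibroblasts (0.72 at the 60th percentile); and of other inhibitors for PyMT in Ets2-present fibroblasts (0.33 with no filter). Over all kept genes, those at least 2-fold higher or lower without Ets2 in PyMT fibroblasts numbered 664 and 675, against 227 and 319 at the 60th percentile, and in normal fibroblasts 262 and 209, against 82 and 59. With PyMT they numbered 842 and 970 in Ets2-null fibroblasts, against 325 and 524, and 471 and 541 in Ets2-present fibroblasts, against 203 and 300. Fewer or more probe sets enter under these settings; other causes were not tested. No paired analysis was possible because each group has 1 array, and for the same reason no array could be left out.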
